A study of Homo sapiens with 5 samples.

Results

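The ID family comprises the 4 genes ID1, ID2, ID3 and ID4, which encode inhibitors of DNA binding and differentiation. Binding of the transcription factors Smad3 and IRF3 at these genes was read from ChIP-seq peak lists of BT549, a long-established triple-negative breast cancer line. A peak belonged to an ID gene when it lay inside the gene or within 50 kb of it, with gene positions from RefSeq (GRCh38.p14, the coordinates of hg38). This gave 39 of the 19372 peaks in the 5 lists, 27 of them for Smad3 and 12 for IRF3, at 4 of 20037 protein-coding genes. All cells carried a lentiviral vector, either the HA control or constitutively active Smad3 (caSmad3). PolyI:C is a synthetic double-stranded RNA that was transfected to activate IRF3. IRF3 was precipitated from HA cells and from caSmad3 cells, both transfected with polyI:C and given no TGF-beta. Smad3 was precipitated from mock-transfected HA cells and from polyI:C-transfected HA cells, each treated with TGF-beta at 1 ng/ml for 1.5 h, and from polyI:C-transfected caSmad3 cells without TGF-beta. Each of these 5 groups held 1 library, so no difference between conditions could be tested. In the Smad3 lists the effect of caSmad3 cannot be told apart from the lack of TGF-beta. The IRF3 list of HA cells differed from the Smad3 list of the same polyI:C-transfected cells by TGF-beta as well as by the antibody.

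ID proteins have a helix-loop-helix domain and no basic region, so they pair with the E proteins TCF3, TCF4 and TCF12 and keep them from binding the E-box. They hold back differentiation and are known for roles in proliferation, stemness and metastasis of breast cancer cells. ID1, ID2 and ID3 are classical immediate targets of BMP signals through SMAD1 and SMAD5, and TGF-beta, through Smad3, can raise or lower them depending on the cell. Smad proteins recognise the Smad box GTCT (AGAC on the other strand) and GC-rich 5-base elements. IRF3 binds repeats of GAAA.

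The 250 bases before the transcript start of each gene are shown because IRF3 peaks at ID1, ID2 and ID3 and several Smad3 peaks lay over this stretch. They are RefSeq promoters (GRCh38.p14), written 5′ to 3′ on the gene's own strand, with capitals for the Smad box GTCT and for the GC-rich elements GGCGC and GGCCG on either strand. They lie at chr20:31605039-31605288 (plus strand), chr2:8681806-8682055 (plus), chr1:23559502-23559751 (minus) and chr6:19837120-19837369 (plus), in the order ID1 to ID4.
ID1: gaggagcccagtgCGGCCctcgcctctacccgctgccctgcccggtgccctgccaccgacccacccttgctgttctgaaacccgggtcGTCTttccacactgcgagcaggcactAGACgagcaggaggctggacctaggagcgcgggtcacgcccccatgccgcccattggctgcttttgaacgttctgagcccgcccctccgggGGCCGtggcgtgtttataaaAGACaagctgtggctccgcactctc
ID2: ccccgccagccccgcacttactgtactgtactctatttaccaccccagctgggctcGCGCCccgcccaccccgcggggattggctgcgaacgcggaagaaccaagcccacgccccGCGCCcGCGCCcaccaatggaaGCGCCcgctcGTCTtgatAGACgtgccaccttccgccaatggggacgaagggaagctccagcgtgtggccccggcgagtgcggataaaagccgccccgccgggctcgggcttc
ID3: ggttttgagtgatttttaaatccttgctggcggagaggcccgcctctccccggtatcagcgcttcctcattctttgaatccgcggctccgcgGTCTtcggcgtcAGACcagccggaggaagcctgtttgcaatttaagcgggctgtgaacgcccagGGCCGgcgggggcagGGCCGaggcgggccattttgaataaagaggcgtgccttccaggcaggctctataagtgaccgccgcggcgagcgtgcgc
ID4: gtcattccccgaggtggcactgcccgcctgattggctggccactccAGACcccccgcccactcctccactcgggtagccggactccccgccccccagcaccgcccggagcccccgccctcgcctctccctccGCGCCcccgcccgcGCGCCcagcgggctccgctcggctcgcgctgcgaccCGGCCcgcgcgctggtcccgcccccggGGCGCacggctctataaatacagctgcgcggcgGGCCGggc
The Smad box occurred 3 times at ID1, 2 times at ID2, 2 times at ID3 and 1 time at ID4. It is a short motif, and 76.3% of the 15842 protein-coding promoters of this length held at least 1. GGCGC was found 4 times at ID2 and 3 times at ID4 and not at ID1 or ID3 (55.5% of promoters held it), and GGCCG 2 times at each of ID1, ID3 and ID4 and not at ID2 (54.0%). None of the 4 stretches held the longer palindrome GGCGCC, of which GGCGC is a part (20.7% of promoters), or the longer Smad box CAGACA, which contains AGAC (11.8%). None held the IRF core AANNGAAA (17.4%), the AP-1 site TGANTCA (5.40%) or the cyclic AMP element TGACGTCA (2.25%). The shorter TGACG was present 1 time at ID3, where it shared 1 base with a Smad box, and in 24.7% of promoters. The E-box CANNTG occurred 1 time each at ID2 and ID4 (58.2%). All motifs were searched on both strands.

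ID1 and ID3 had Smad3 peaks in all 3 Smad3 lists, whereas ID2 and ID4 had them in caSmad3 cells alone. ID1 had 3 Smad3 peaks after mock transfection, 4 in polyI:C-transfected HA cells and 9 in caSmad3 cells. ID3 had 1, 2 and 5, ID2 had 0, 0 and 2, and ID4 had 0, 0 and 1. For IRF3 the numbers in HA and caSmad3 cells were 2 and 4 at ID1, 1 and 1 at ID2, 1 and 1 at ID3, and 0 and 2 at ID4. The genes were ordered ID1, ID3, ID2, ID4 by their total of 22, 10, 4 and 3 peaks. With 1 library a group, this order has no error and neighbours in it were not tested.

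**Figure D1:**
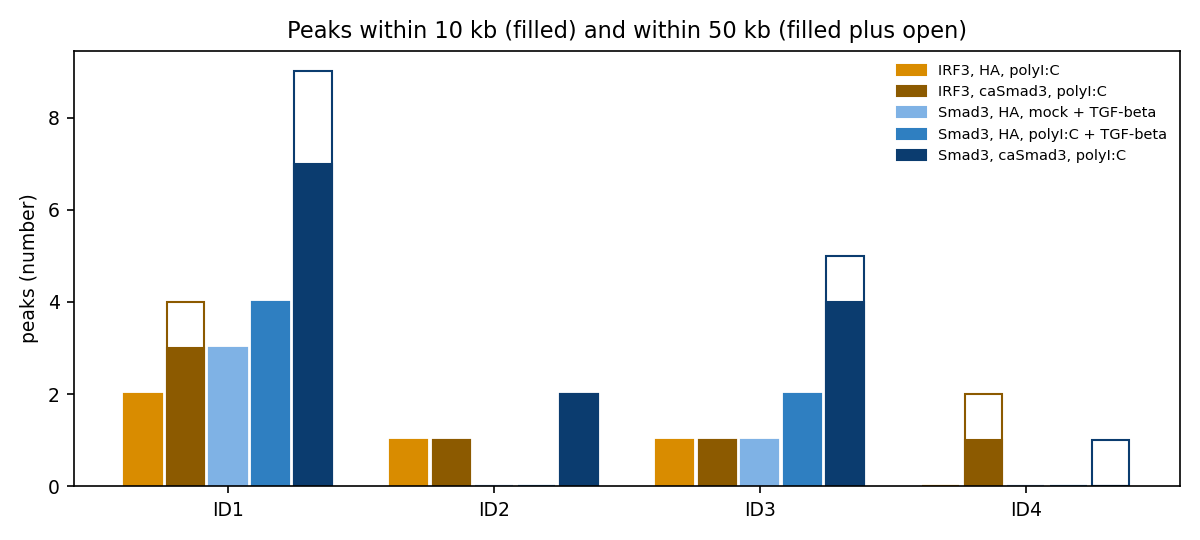
Number of peaks at each ID gene in the 5 libraries, with filled bars for peaks inside or within 10 kb of the gene and open extensions for those up to 50 kb away. ID1 has the tallest bar in each library, up to 9 Smad3 peaks in caSmad3 cells, and the single Smad3 peak of ID4 lies beyond 10 kb.

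Smad3 peaks therefore lay within 50 kb of 2 of the 4 ID genes after mock transfection, where 2.04% of all protein-coding genes had one, of 2 in polyI:C-transfected HA cells (5.24%) and of 4 in caSmad3 cells (33.8%). For IRF3 it was 3 of 4 in HA cells (37.6%) and 4 of 4 in caSmad3 cells (57.1%). Within 10 kb the members counted 2, 2 and 3 for Smad3, against 0.918%, 2.53% and 19.9% of all genes. For IRF3 they counted 3 and 4, against 23.6% and 40.5%. ID genes are short, with 1222 to 4828 bases against a median of 24115 for protein-coding genes. The part of gene length in these counts was not tested. In all 3 Smad3 lists 131 genes (0.654%) had a peak within 10 kb, ID1 and ID3 among them. The lists hold positions and no heights, and their depth is unknown. A peak that is not listed is therefore no measure of lost binding.

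ID1 (chromosome 20, 31605289 to 31606510, plus strand) carried a row of Smad3 peaks that began upstream of the gene and ended beyond it. The Smad3 list of caSmad3 cells had 6 peaks between 31604124 and 31607661, a span of 3538 bases of which they covered 2470, with gaps of 52 to 371 bases. Joined where they lay less than 1 kb apart, the 9 peaks within 50 kb became 3 sites. The number of peaks is thus no number of separate sites.

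The first Smad3 site of ID1 lay about 1 kb upstream of the transcript start. Its peak was 376 bases wide in mock-transfected cells (31604104 to 31604479, 1185 to 810 bases upstream) and 466 bases in caSmad3 cells (31604124 to 31604589), with 356 bases in common. No peak was listed there in polyI:C-transfected HA cells, which had a peak farther upstream (136 bases, 31603004 to 31603139, 2285 to 2150 bases from the start). IRF3 was listed at the upstream site in both libraries, with 117 bases in HA cells (31604354 to 31604470) and 389 bases in caSmad3 cells (31604215 to 31604603). Both of these overlapped the Smad3 peaks of mock-transfected and of caSmad3 cells.

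The second site lay over the transcript start of ID1 and was present in all 5 lists. The Smad3 peak of caSmad3 cells measured 641 bases (31604929 to 31605569, from 360 bases upstream to 280 bases into the gene) and was wider than 97.5% of the peaks of its list. In HA cells the peaks were narrow and stopped short of the start. After mock transfection the peak ran from 117 to 9 bases upstream (109 bases, 31605172 to 31605280), and after polyI:C from 220 to 116 bases upstream (105 bases, 31605069 to 31605173). These 2 peaks had 2 bases in common. In the promoter sequence above, the Smad boxes at 162 and 136 bases upstream lay inside the polyI:C peak and the one at 25 bases upstream inside the mock peak, while the caSmad3 peak held all 3. IRF3 covered the start with 462 bases in HA cells (31605034 to 31605495) and 694 bases in caSmad3 cells (31604858 to 31605551), wider than 92.8% and 97.9% of their lists.

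Inside ID1 only caSmad3 cells had Smad3 peaks, at 366 to 549 and 602 to 998 bases from the start. Whether these fell in exons or introns was not analysed here. Beyond the gene lay a pair of sites. The nearer had Smad3 peaks in polyI:C-transfected HA cells (315 bases, 31606728 to 31607042) and in caSmad3 cells (317 bases, 31606659 to 31606975), which shared 248 bases, and an IRF3 peak in caSmad3 cells alone (253 bases, 31606560 to 31606812). The farther one had a Smad3 peak in all 3 lists and no IRF3 peak. It measured 202 bases after mock transfection (31607312 to 31607513), 341 after polyI:C (31607321 to 31607661), while caSmad3 cells had 465 (31607197 to 31607661), and 193 bases were common to the 3 peaks. The caSmad3 peak also held 44 of the 55 bases of the microRNA gene MIR3193. From this Smad3 peak the nearest IRF3 peak lay 1702 bases away in HA cells and 385 bases away in caSmad3 cells.

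**Figure D2:**
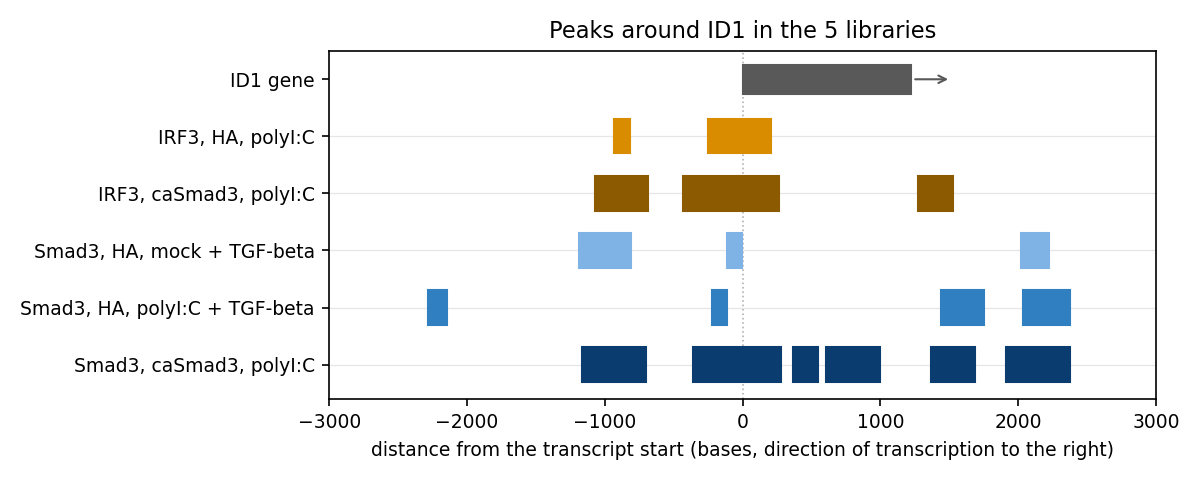
Peaks around ID1 by library, drawn to scale against the distance from the transcript start in bases, with the gene as a grey bar and peaks beyond the axis not drawn. IRF3 peaks lie upstream and over the start, with 1 further peak beyond the gene in caSmad3 cells, and Smad3 peaks extend past the end of the gene in all 3 Smad3 libraries.

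Few genes had as many listed Smad3 peaks within 10 kb as ID1. This comparison used peaks as listed and was not made with peaks joined within 1 kb. Joining took the Smad3 peaks of ID1 within 50 kb from 3, 4 and 9 to 2, 3 and 3 (mock, polyI:C and caSmad3). Its 3 peaks after mock transfection were equalled by LTBP2, which encodes a binding protein of latent TGF-beta, and CCDC200, and 3 genes in all reached 3. These were named after their values were seen. The 4 peaks after polyI:C were reached by 14 genes, of which 11 were histone genes, and the 7 peaks of caSmad3 cells by 40 genes (0.200%). Chromosome 20, which carries ID1, held 8.78% of the mock Smad3 peaks, 8.40% of those of polyI:C-transfected HA cells and 6.14% of those of caSmad3 cells, but 2.68% of protein-coding genes. Of its 537 protein-coding genes, 2.42%, 6.70% and 40.4% had a Smad3 peak within 10 kb. The part of this density in the number of peaks at ID1 was not tested. Among the genes of chromosome 20, 1, 1 and 2 genes, ID1 included, had as many Smad3 peaks as ID1 in these 3 lists.

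ID3 (chromosome 1, 23557926 to 23559501, minus strand) had its shared Smad3 site beyond the gene and its IRF3 peak at the start. The downstream Smad3 peak measured 213 bases after mock transfection (23556834 to 23557046), 553 in polyI:C-transfected HA cells (23556574 to 23557126) and 477 in caSmad3 cells (23556686 to 23557162). The mock peak lay wholly inside both others, and the polyI:C peak was the widest of the 3, wider than 93.1% of its list. Counted from the transcript start, the site ran from 2339 to 2927 bases. No IRF3 peak overlapped it, and from the Smad3 peak of caSmad3 cells the nearest IRF3 peak lay 2141 bases away in HA cells and 2039 bases away in caSmad3 cells.

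At the start of ID3 a Smad3 peak was listed in caSmad3 cells alone (207 bases, 23559485 to 23559691, from 190 bases upstream to 16 bases inside). It lay wholly within the IRF3 peaks of HA cells (470 bases, 23559303 to 23559772) and of caSmad3 cells (681 bases, 23559201 to 23559881), and it contained both Smad boxes of the printed ID3 promoter. The IRF3 peaks were wider than 93.5% and 97.7% of their lists. Other Smad3 peaks of ID3 were listed in 1 library each. polyI:C-transfected HA cells had one 3098 to 2978 bases upstream (121 bases). CaSmad3 cells had peaks at 3107 to 3222 (116 bases) and 4194 to 4434 bases (241 bases) downstream of the start, and a distant one 26368 to 26063 bases upstream (306 bases).

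ID2 (chromosome 2, 8682056 to 8684461, plus strand) had nearly the same IRF3 peak in both libraries and Smad3 in caSmad3 cells alone. The IRF3 peaks over its start measured 459 bases in HA cells (8681895 to 8682353) and 469 in caSmad3 cells (8681875 to 8682343), with 449 bases shared. The Smad3 peak at the start had 172 bases (8682009 to 8682180) and lay wholly inside both. It began 47 bases before the start, so that neither Smad box of the ID2 promoter, which stand 103 to 92 bases upstream, lay in it, although both lay in the IRF3 peaks. The rest of this Smad3 peak lay inside the gene, where no sequence was searched for Smad boxes. A second Smad3 peak of 211 bases lay 636 bases beyond the gene (8685097 to 8685307), 2754 bases from the nearest IRF3 peak of the same cells.

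**Figure D3:**
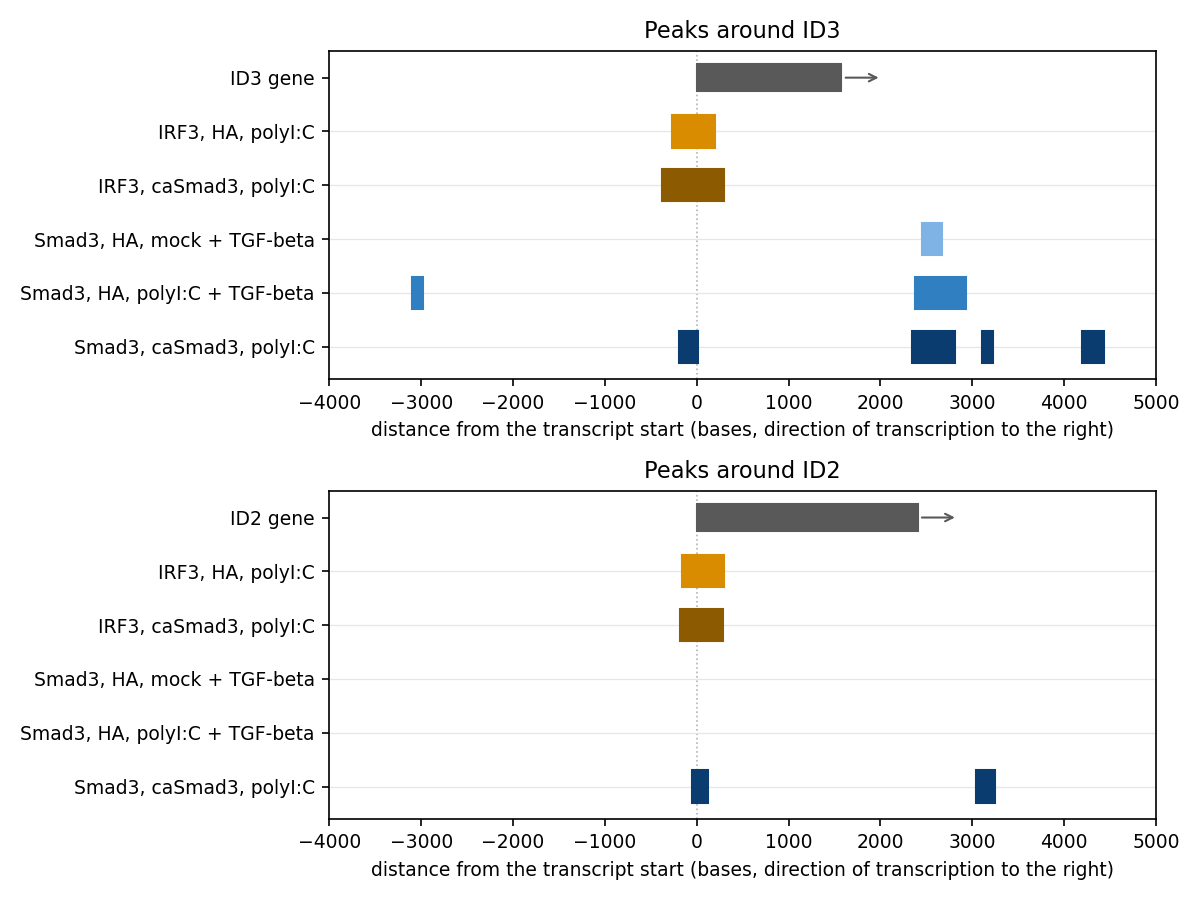
Peaks around ID3 (top) and ID2 (bottom) by library against the distance from the transcript start in bases, with the direction of transcription to the right for both genes and the distant upstream Smad3 peak of ID3 beyond the axis. IRF3 peaks sit over the start in both libraries, and the Smad3 site between 2339 and 2927 bases at ID3 is listed in all 3 Smad3 libraries.

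ID4 (chromosome 6, 19837370 to 19842197, plus strand) had the fewest peaks of the family. HA cells had none within 50 kb in any of their 3 lists. In caSmad3 cells a narrow IRF3 peak (107 bases, 19837389 to 19837495) began 19 bases after the transcript start, and 88.4% of the peaks of that list were at least as wide. An IRF3 peak (169 bases, 19804516 to 19804684) and a Smad3 peak (143 bases, 19804602 to 19804744) of caSmad3 cells overlapped by 83 bases about 33 kb upstream, within the long non-coding RNA gene LNC-LBCS. The printed ID4 promoter had 78.8% G and C, the richest of the 4 (62.0% to 69.2% for the others, median of all promoters 62.0%). No base of it lay in a peak of any list. How many other promoters had no such base was not computed. In the IRF3 list of caSmad3 cells, the longest, 17.9% of genes had their transcript start inside a peak. A link between G and C content and peaks was not tested.

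IRF3 covered 3 transcript starts of the family in both libraries, and Smad3 covered them in caSmad3 cells alone. The start of ID1, ID2 and ID3 lay inside an IRF3 peak in both libraries, so that 3 of 4 members were covered in HA cells (8.76% of 15842 protein-coding genes with a known strand) and 3 in caSmad3 cells (17.9%). For Smad3 the same 3 starts were covered in caSmad3 cells (3.98%) and none in HA cells after mock transfection (0.0379%) or polyI:C (0.271%). Conversely, a Smad3 peak lay wholly downstream of the gene and within 1 kb of its end at ID1 and ID3 in mock-transfected cells, where 0.0379% of the same genes had such a peak, at ID1 and ID3 after polyI:C (0.145%) and at ID1, ID2 and ID3 in caSmad3 cells (1.03%). In caSmad3 cells the nearest of these peaks stood 149 bases from the end of ID1, 636 from that of ID2 and 764 from that of ID3. IRF3 had such a peak at none of the 4 genes in HA cells (0.663%) and at ID1 alone in caSmad3 cells (1.24%). The downstream position was singled out after the peaks had been seen, and these counts are a description.

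The 39 peaks formed 21 sites when overlapping peaks of any library were merged. Smad3 was present at 19 sites and IRF3 at 8, both together at 6, Smad3 without IRF3 at 13 and IRF3 without Smad3 at 2. These counts pool libraries of different cells and treatments, and mock-transfected cells had no IRF3 library. The share of such sites over the whole series was not computed, so the counts are no trait of ID genes. Of the Smad3 sites, 12 were listed in caSmad3 cells and in neither HA list, as most Smad3 peaks of caSmad3 cells were. Another 3 sites were in all 3 Smad3 lists. Those 3 were the site at the start of ID1 and the downstream sites of ID1 and ID3. The latter pair had no overlapping IRF3 peak. At the start of ID1 the peaks of both HA lists ended upstream of the start and had 2 bases in common. The caSmad3 list held 6041 Smad3 peaks against 353 (mock) and 786 (polyI:C) in HA cells. Most of its peaks could thus have no counterpart there. Of this whole list 5.12% overlapped the mock list and 10.8% the polyI:C list. Of its 17 peaks at ID genes 4 overlapped each (23.5%). In the other direction, 91.8% of the mock peaks and 86.4% of the polyI:C peaks overlapped the caSmad3 list. At ID genes these were 4 of 4 and 4 of 6. In the whole series, 244 of the 353 mock Smad3 peaks (69.1%) overlapped both other Smad3 lists, and 115 of these 244 (47.1%) touched no IRF3 peak.

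In caSmad3 cells, where both antibodies were used after the same treatment, 6 of 17 Smad3 peaks at ID genes overlapped an IRF3 peak (35.3%), beside 31.6% of all Smad3 peaks of that list (95% Clopper-Pearson interval 30.4 to 32.8, counting error only). Taken from the IRF3 side, 6 of 8 peaks overlapped Smad3, beside 22.8% of the whole list (21.9 to 23.8). These 6 were 3 pairs at ID1 and 1 pair each at ID2, ID3 and ID4. The other 11 Smad3 peaks lay 104 to 25683 bases from the nearest IRF3 peak, 5 of them within 500 bases. The share of the whole list within that distance was not computed, so this closeness is no trait of ID genes. In polyI:C-transfected HA cells, 1 of 6 Smad3 peaks overlapped an IRF3 peak (16.7%, beside 31.2% of the list, 27.9 to 34.5), the narrow one before the start of ID1. The 4 IRF3 peaks of HA cells at ID genes all overlapped an IRF3 peak of caSmad3 cells (82.8% of the whole list did). The 4 Smad3 peaks of mock-transfected cells at ID genes all overlapped Smad3 of caSmad3 cells (91.8%). Of these 4, 3 overlapped Smad3 of polyI:C-transfected HA cells, beside 247 of the 353 peaks of the whole mock list.

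Peak width is the only size that the lists give. IRF3 peaks over the starts of ID1, ID2 and ID3 measured 459 to 694 bases, against medians of 185 and 215 bases in the whole lists of HA and caSmad3 cells. These peaks were picked for covering a start, and they were not compared with IRF3 peaks over other starts. The other IRF3 peaks at ID genes measured 107 to 389 bases. Of the 17 Smad3 peaks of caSmad3 cells, 12 were wider than the median of 178 bases, as were 3 of 4 after mock transfection (median 164) and 3 of 6 after polyI:C (median 154.5).

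**Figure D4:**
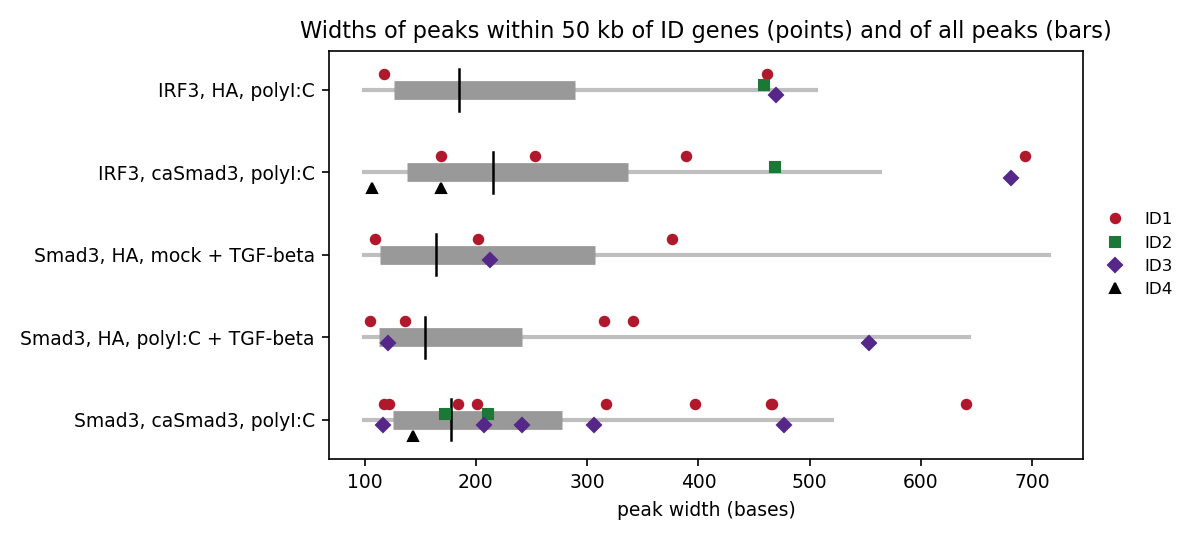
Widths in bases of the peaks within 50 kb of ID genes (points, by gene) beside all peaks of each library (black tick, median; thick bar, 25th to 75th percentile; thin line, 5th to 95th percentile). The IRF3 peaks at the starts of ID1, ID2 and ID3 lie to the right of the thick bars at 459 to 694 bases, and both IRF3 peaks of ID4 lie below the median of 215 bases.

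Other genes of the pathway were read within 10 kb, from 5 lists made with results of these data already known, in which SMAD6, SMAD7, SKIL and HEY1 each stand more than once. Among 21 ligands and receptors of the BMP and TGF-beta family, 0 had a Smad3 peak after mock transfection, 1 after polyI:C and 5 in caSmad3 cells, beside 0.918%, 2.53% and 19.9% of all protein-coding genes. BMP7, a ligand, had 1 peak in each of the last 2 lists, and TGFB2, BMPR1B, ACVR1 and TGFBR2 had 1 each in caSmad3 cells. IRF3 was listed at 1 and 3 of the 21 (all genes 23.6% and 40.5%). Of 16 SMAD proteins and cofactors, 0, 0 and 6 had Smad3 peaks (all genes 0.918%, 2.53% and 19.9%). SMAD6 and SMAD7, the inhibitory Smads, had 1 and 2 in caSmad3 cells, and SMAD3, SKI, SMURF2 and TGIF1, the last named after its value was seen, had 1 each. IRF3 was found at 2 and 9 of these (all genes 23.6% and 40.5%).

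Of 17 other rapid target genes, 1, 5 and 11 had a Smad3 peak within 10 kb, beside 0.918%, 2.53% and 19.9% of all genes. LTBP2 had 3, 2 and 6 Smad3 peaks, and was the gene of this list with a peak in all 3. JUNB, which encodes an AP-1 subunit, and GADD45B, a stress response gene, had 0, 1 and 4 each, and PMEPA1, which encodes an inhibitor of TGF-beta signalling, had the same numbers. TGFBI, which encodes a matrix protein, had 0, 1 and 2. IRF3 was listed at 6 and 11 of the 17, beside 23.6% and 40.5% of all genes. Within 10 kb ID1 had 3, 4 and 7 Smad3 peaks. It exceeded each of these genes in each Smad3 list, except that LTBP2 equalled it after mock transfection. For IRF3, JUNB had 6 and 4 peaks within 10 kb, more than the 2 and 3 of ID1.

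Among 14 proteins that ID proteins bind or that act beside them, 0, 1 and 8 had a Smad3 peak (all genes 0.918%, 2.53% and 19.9%), and 3 and 9 an IRF3 peak (23.6% and 40.5%). The E protein genes TCF3 and TCF4 had 1 Smad3 peak each in caSmad3 cells, and TCF12 had no peak of either factor. HES1, a helix-loop-helix repressor, had 0, 0 and 4 Smad3 peaks, CAV1 had 0, 1 and 3, ELK3 had 0, 0 and 3, and ETS1 and RB1 had 0, 0 and 1. Of 12 cell cycle and lineage genes controlled by E proteins and ID proteins, 0, 0 and 5 had a Smad3 peak and 4 and 6 an IRF3 peak, against the same shares of all genes. CDKN2A and CDKN2B, neighbouring genes of cell cycle inhibitors, had 3 and 4 Smad3 peaks in caSmad3 cells, some of which they may share, MYC had 3, and CDKN1B and CDH1 had 1 each.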

How the data were processed

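Peaks of 5 ChIP-seq libraries of BT549 cells were analysed. Per the submitters' processing notes, the tools were MACS2 (version 2.1.0) and Bowtie2 (version 2.2.2.6) and the build was hg38. For calling threshold, control library and duplicates, nothing was given in the sources used here. The deposited lists, 1 per library and not pooled, give chromosome, start, end and name of each peak. They held 4125 and 8067 IRF3 peaks (HA and caSmad3 cells) and 353, 786 and 6041 Smad3 peaks (mock, polyI:C and caSmad3). Read depth is unknown. Starts were converted to 1-based positions.

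Gene positions came from a RefSeq table (GRCh38.p14), and transcript starts and strands from RefSeq promoter windows, which covered 15842 of 20037 protein-coding genes. A genome sequence and exons were not used here, so sequence under peaks outside promoters was not read. Distance ran to the nearest base of the gene, and peaks overlapped when they shared at least 1 base. The distance and overlap functions were tested on simulated data with planted peaks.

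The members, gene lists and motifs were chosen with earlier results of these data known. Named genes were the ID genes, coding neighbours nearer to a peak than the ID gene, up to 5 genes of each list with Smad3 peaks in the most libraries, and the 5 genes with peak numbers most like each ID gene. TCF3, TCF4, TCF12, TGIF1 and CCDC200 fell outside this rule and were named after their values were seen. The counts downstream of gene ends and by chromosome were likewise added after the peaks were seen. Python 3.11.15 was used with numpy 2.4.6, scipy 1.17.1 and matplotlib 3.10.9. Alternatives were windows of 10 and 1 kb, the wider 50% of peaks, peaks joined within 1 kb, peaks nearest to the ID gene, and overlap over 50% of both peaks or within 500 bases.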

Additional observations from a re-analysis of the deposited data

How the results depend on the processing

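No result has a replicate, and no height or score was available for a stricter list, so the wider 50% of peaks stood in for one. The number of ID genes with a peak stayed within 1.5 times under every alternative run for it, and it was 2 in both HA Smad3 lists with each. The total of Smad3 peaks in caSmad3 cells went from 17 to 10 within 1 kb and to 9 when joined within 1 kb. With the wider 50% of peaks, the total for IRF3 in caSmad3 cells went from 8 to 5 and for Smad3 in polyI:C-transfected HA cells from 6 to 3.

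Overlap depended on its definition. With 50% of both peaks, Smad3 peaks overlapping another Smad3 list went from 4 to 2 for the mock list, and those overlapping IRF3 from 1 to 0 in polyI:C-transfected HA cells and from 6 to 2 in caSmad3 cells. The wider 50% of peaks also left 0 in HA cells. At up to 500 bases apart, caSmad3 peaks near another Smad3 list went from 5 to 8 and those near IRF3 from 6 to 11. Whole-list shares were not computed under these alternative definitions, so the changes are no trait of ID genes.

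The background share, over all coding genes, moved with the window. In the order IRF3 in HA and caSmad3 cells, then Smad3 in mock, polyI:C and caSmad3 cells, it was 23.6%, 40.5%, 0.918%, 2.53% and 19.9% within 10 kb, and 18.9%, 34.3%, 0.644%, 1.85% and 15.6% within 1 kb. With the wider 50% of peaks it was 23.2%, 40.7%, 0.988%, 2.72% and 20.5% within 50 kb. Of 70 alternatives for totals and shares, 25 moved and 45 did not. Those that moved include every alternative for the background share, which falls with a smaller window or fewer peaks. For single ID genes 15 moved and 60 did not, and none changed direction, since these values carry no sign.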

Other observations

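Some of the peaks at ID genes overlapped non-coding genes. The share of all peaks that did so was not computed, so this is no trait of ID genes. At ID3, the Smad3 site shared by the 3 Smad3 lists and the IRF3 peaks at the start lay within the long non-coding RNA gene LOC124903876 (chromosome 1, 23539883 to 23573700), which spans ID3. At ID1, the peaks over the start also touched LOC105372588 (chromosome 20, 31604691 to 31605195), a long non-coding RNA gene that ends 94 bases before ID1. The signal peptide peptidase gene HM13 was the coding gene nearest to 3 distant peaks of the ID1 window in caSmad3 cells, 2 for Smad3 (31572738 to 31572859 and 31572964 to 31573164) and 1 for IRF3 (31573344 to 31573512). All 3 lay over 30 kb upstream of ID1, within non-coding genes HM13-AS1 or LOC107985416. All other peaks, 36 of 39, had the ID gene as the nearest coding gene. The nearest other coding gene lay 31402 bases from ID1, 36620 from ID2 and 26693 from ID3, so peaks close to these genes had no nearer one. A matching share over all peaks was not computed, and the count does not assign the peaks to the ID genes.

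Genes with numbers of peaks most like those of an ID gene were sought by the summed difference of the 5 numbers of peaks within 10 kb, over 5 libraries. For ID1 none had the same numbers. The nearest were the histone gene H4C14, with a summed difference of 4, and IER5L and the neighbouring histone genes H2AC20, H2AC21 and H2BC21, with 5. For ID3 the nearest were FRMD8, COL16A1, which encodes a collagen chain, and TRPM3, which encodes an ion channel, each with a difference of 1, followed by CROCC and GADD45B with 2. For ID2, with 1, 1, 0, 0 and 2 peaks, 114 genes had identical numbers, among them PUF60, SAT1 and its overlapping entry LOC127933115, RPS20 and ACBD4, which were also closest in bases covered. ID4 had peaks within 10 kb in 1 library, and no such genes were sought.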
